A study of Mus musculus with 6 samples.

Results

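The miR-22 hairpin gave 2 of the 2110 counted loci, the abundant 3p strand miR-22-3p (identifier MIMAT0000531) and its opposite arm miR-22-5p (MIMAT0004629). miR-22-3p was chosen by its identifier, and the opposite arm is the locus on the same chromosome and strand within 80 bp. Small RNA had been sequenced from extracellular vesicles, called exosomes in the labels, of mouse muscle. The groups were old muscle and young muscle, with 3 libraries each, and all values are counts of reads at mature miRNA loci. The sources used here give neither ages in time units, strain or sex nor the muscles taken or the way the vesicles were isolated. No label ties a replicate to an animal of its own; the p-values therefore cover the spread among these libraries alone, and it may be technical.

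A miRNA is cut from a hairpin whose arms yield a strand each. The strand that is loaded into an Argonaute protein guides repression of mRNAs that pair with its seed, bases 2 to 8, and the other strand is mostly degraded. miR-22 is a conserved miRNA that is abundant in heart and skeletal muscle, and in mice its loss impairs the growth response of the heart to stress. The histone deacetylase Hdac4 is among its reported targets.

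Both strands are shown first, since the counts rest on them, together with the mature mouse sequence nearest to miR-22-3p. Capitals mark the seed, and the sequences are from RefSeq on GRCm38.p6, the assembly also called mm10.
miR-22-3p: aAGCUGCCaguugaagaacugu
miR-22-5p: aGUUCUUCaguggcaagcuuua
miR-3966: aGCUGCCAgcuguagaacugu
miR-22-3p lies at chr11:75463772-75463793 and miR-22-5p at chr11:75463734-75463755, both on the plus strand. No other mature miRNA among the 1679 sequences of the RefSeq table had the seed of either strand. miR-3966 came closest, with 2 mismatches over 21 aligned bases, and its seed letters are bases 3 to 9 of miR-22-3p, a shift of 1 base. Its locus on chromosome 10 was listed at 0 in all libraries. The next nearest sequence to miR-22-3p differed at 6 of 19 aligned bases, and the nearest to miR-22-5p likewise at 6 of 19.

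The hairpin, 95 bases at chr11:75463716-75463810, is shown because it places the arms against each other, with miR-22-5p first and miR-22-3p second in capitals.
Mir22 hairpin: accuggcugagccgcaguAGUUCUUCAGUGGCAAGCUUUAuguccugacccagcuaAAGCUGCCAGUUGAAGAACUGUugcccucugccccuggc
The arms are 16 bases apart. In the structure predicted by RNAfold (-41.9 kcal/mol), 19 of the 22 bases of miR-22-3p paired with the 5p arm, all 7 seed bases were paired, and 21 bases of each arm were paired in all. In GENCODE release M21 the hairpin lies in exon 2 of 2 transcripts of the noncoding host gene Mir22hg. It also lies in exon 2 of 1 transcript of the overlapping protein-coding gene Tlcd2. Among 141767 annotated transcripts, the miR-22-3p sequence stood in transcripts of 3 genes, Mir22, Mir22hg and Tlcd2, all at this place, and the antisense sequence stood in none. Neither arm overlapped another counted locus, so that neither was lost in the way that left 104 of 106 overlapping loci at 0.

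Totals were 904892, 1417733 and 1383960 counts in old replicates 1, 2 and 3, and 1459826, 1706396 and 1523331 counts in young replicates 1, 2 and 3. Old replicate 1 stood apart. miR-21a-5p, the most abundant locus in all libraries, held 35.4% of its counts, against 49.0% and 52.9% in the other old libraries and 49.5% to 51.9% in the young ones. By chi-square per degree of freedom it differed from the other old libraries by 176 and 281, while those differed from each other by 30.3 and the young libraries differed by 14.4 to 28.4. No 2 libraries of a group were alike to within counting error.

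miR-22-3p held rank 4 by abundance among the loci in each of the 6 libraries. It had 32602, 45066 and 43761 counts in old replicates 1, 2 and 3, against 41459, 45735 and 39839 counts in young replicates 1, 2 and 3. Summed over identical copies, the mature miRNAs around it were the red blood cell miRNA miR-451a and the differentiation-associated let-7c-5p above it, and below it miR-378a-3p, which is made from an intron of the metabolic coactivator gene Ppargc1b. miR-451a was higher than miR-22-3p in all 6 libraries, and miR-378a-3p was lower in all 6. let-7c-5p was not separated from it. It took 5.28%, 2.93% and 2.49% of the counts in old replicates 1, 2 and 3, against 3.67%, 3.62% and 3.72% in the young ones, and miR-22-3p was above it in 2 libraries, old replicates 2 and 3. miR-22-5p was far down the same order, between rank 122 and rank 139 of the mature miRNAs by library.

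**Figure D1:**
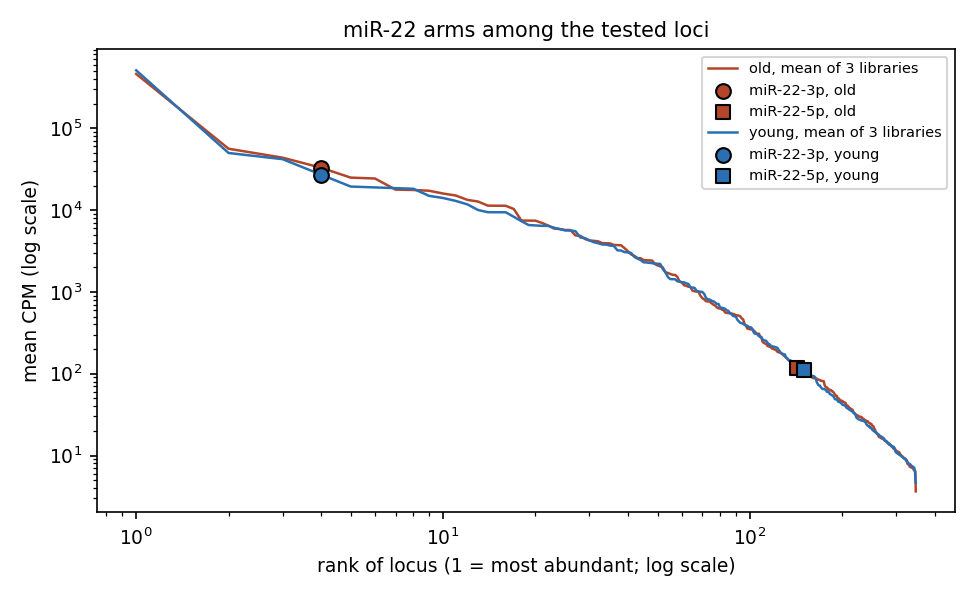
Mean CPM (log scale) against rank (log scale) for the 347 tested loci, as a line for old and a line for young libraries (n = 3 each), with circles for miR-22-3p and squares for miR-22-5p. miR-22-3p stands at rank 4 in both groups, and miR-22-5p lies near 119 CPM in old and 112 CPM in young.

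As a share of all counts, miR-22-3p took 3.60%, 3.18% and 3.16% in old replicates 1, 2 and 3. It took 2.84%, 2.68% and 2.62% in young replicates 1, 2 and 3. Each old library was above each young one. At these depths the exact 95% binomial interval of a library spanned little, 3.56% to 3.64% in the shallowest one, old replicate 1; such intervals cover counting error only. The means were 3.31% ± 0.25 in old and 2.71% ± 0.116 in young (SD, n = 3 each), a difference of 0.603 percentage points. The two-sided exact permutation test gave p = 0.1, the smallest that 3 against 3 libraries allow, and no such test here could pass 0.05 (p = 0.25 after Benjamini-Hochberg adjustment over 5 such measures). Without old replicate 1 the difference was 0.459 points.

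miR-21a-5p alone took 35.4% to 52.9% of each total, so the share was also taken over the other counts. There miR-22-3p held 5.58%, 6.23% and 6.71% in old replicates 1, 2 and 3, against 5.87%, 5.57% and 5.18% in young replicates 1, 2 and 3. These ranges overlap, because old replicate 1, highest in the share of all counts, was lowest of the old libraries here. The means were 6.17% ± 0.569 in old and 5.54% ± 0.344 in young (SD, n = 3 each; exact permutation p = 0.2, adjusted p = 0.25). The difference of 0.631 points widened to 0.928 when old replicate 1 was left out and narrowed to 0.362 when old replicate 3 was.

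To compare old with young on a common scale, counts were divided by library sizes scaled with TMM, a method that takes most loci as unchanged, and are given as CPM. miR-22-3p had 32873, 32271 and 33969 CPM in old replicates 1, 2 and 3. It had 28581, 27514 and 25555 CPM in young replicates 1, 2 and 3. The groups did not overlap, and the old libraries lay closer together than their shares did. The means were 33038 ± 861 CPM in old and 27217 ± 1535 CPM in young (SD, n = 3 each). The log2 fold change was 0.28 ± 0.16 (SE) by edgeR's quasi-likelihood test, or 1.21-fold with a 95% interval of 0.966 to 1.53, and did not pass the threshold of 0.05 (Benjamini-Hochberg adjusted p = 0.299 over 347 loci, unadjusted p = 0.0913). Of all tested loci 15, or 4.32%, passed in either direction. Groups did not overlap at 94 loci, or 27.1%, and did so with old higher at 49, or 14.1%, and with old higher at 12 of the 50 most abundant mature miRNAs, or 24%, so that this separation was common among miRNAs of similar abundance. Without old replicate 1 the log2 fold change was 0.30 and the adjusted p = 0.0985 by edgeR, the lowest over the alternatives tried, which ran up to 0.730. Relative values of this kind do not tell fewer vesicles with miR-22 from less miR-22 per vesicle.

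miR-22-5p, the minor strand, showed no such separation. It had 99, 193 and 153 counts in old replicates 1, 2 and 3, against 183, 166 and 170 counts in young replicates 1, 2 and 3. In CPM these were 99.8, 138 and 119 in old, against 126.2, 99.9 and 109 in young. The groups overlapped throughout, with means of 119 ± 19.2 CPM in old and 112 ± 13.3 CPM in young (SD, n = 3 each). The log2 fold change was 0.10 ± 0.22 (SE, adjusted p = 0.854 by edgeR), with a 95% interval from 0.777-fold to 1.47-fold, which holds the value of miR-22-3p. Its sign turned without old replicate 2 (log2 fold change -0.027).

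**Figure D2:**
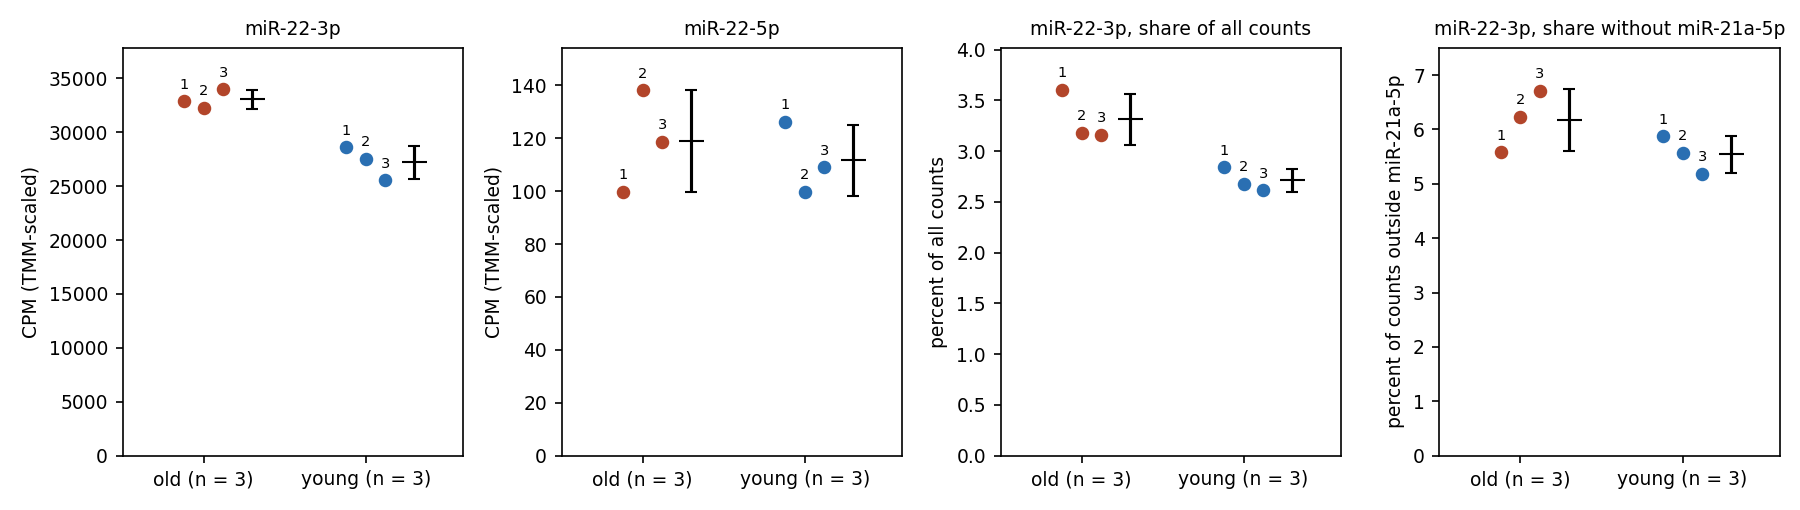
Levels of the miR-22 strands by library, as TMM-scaled CPM in the CPM panels and as percent of counts in the share panels; each numbered point is a replicate, and the bar gives mean and SD (n = 3 each). miR-22-3p lies between 32271 and 33969 CPM in old and between 25555 and 28581 CPM in young, while the groups overlap for miR-22-5p and for the share outside miR-21a-5p.

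Among abundant miRNAs miR-22-3p varied little. The SD of its log2 CPM was 0.043 over the old libraries, rank 3 from the lowest among the 50 most abundant mature miRNAs, whose median SD was 0.22. Over the young libraries it was 0.10, rank 18, against a median of 0.14. miR-21a-5p, in comparison, had an SD of 0.43 over the old libraries and 0.088 over the young ones. By log2 fold change miR-22-3p ranked 14 from the highest of these 50, of which 28 were above 0 with a median of 0.053.

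The ratio of the arms within a library does not depend on scaling. miR-22-3p exceeded miR-22-5p by 329-fold, 234-fold and 286-fold in old replicates 1, 2 and 3, against 227-fold, 276-fold and 234-fold in young replicates 1, 2 and 3. miR-22-5p was thus 0.303%, 0.426% and 0.348% of the reads of the hairpin in old replicates 1, 2 and 3, and 0.439%, 0.362% and 0.425% in the young ones. The groups overlapped. In old replicate 1, with 99 counts of the 5p strand, the exact 95% binomial interval ran from 0.246% to 0.368%. The log2 ratio averaged 8.12 ± 0.25 in old and 7.93 ± 0.15 in young (SD, n = 3 each), a difference of 0.20 ± 0.33 (SE, 95% interval -0.53 to 0.92, adjusted p = 0.779 by limma over 80 hairpins). None of these 80 hairpins passed (0%), with 5 at an unadjusted p under 0.05 by limma, and the groups did not overlap for 12 of them, or 15%.

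Of 334 hairpins with both arms counted, 80 had at least 10 counts of each arm in 3 libraries, a filter that leaves out hairpins with a very rare minor strand. Among these 80 the 3p arm was higher in 28 and the 5p arm in 52. The median size of the log2 ratio was 3.58, against 8.03 for miR-22, which ranked 10 of these 80 by size and 4 among them in favour of the 3p arm. Next above it came Mir199b with a log2 ratio of 8.64 and next below it Mir652 with 7.57, and both rest on fewer reads of the minor strand (a mean of 24.5 and 22.7 counts, against 161 for miR-22).

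**Figure D3:**
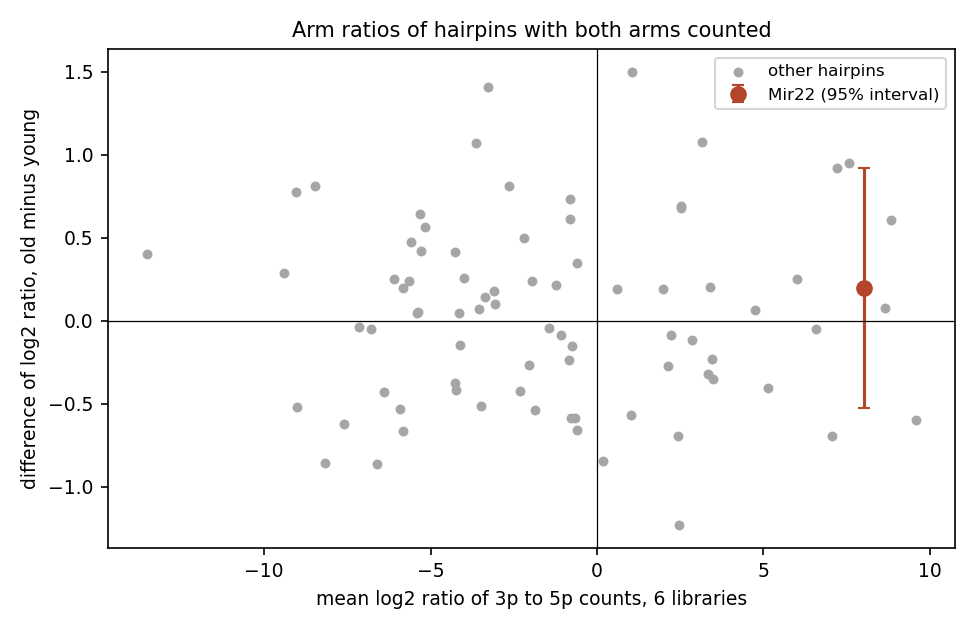
Difference of the log2 ratio of 3p to 5p counts, old minus young, against its mean over the 6 libraries, for 80 hairpins; the bar on Mir22 is its 95% interval. Mir22 lies at 8.03 on the horizontal axis and its interval, from -0.53 to 0.92, holds 0.

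Ratios of miR-22-3p to other miRNAs within a library gave different answers by partner. Against 5 miRNAs often used as references (miR-16-5p, miR-103-3p, miR-191-5p, miR-93-5p and let-7a-5p; geometric mean over their 8 loci), its log2 ratio was 4.19, 4.41 and 4.58 in old replicates 1, 2 and 3, and 4.16, 4.08 and 3.92 in young replicates 1, 2 and 3. The groups did not overlap, and the ratio was 1.27-fold higher in old (log2 difference 0.34, exact permutation p = 0.1, adjusted p = 0.25). None of the 8 reference loci passed by edgeR or DESeq2, 0 had an unadjusted p under 0.05 by edgeR, 3 had positive log2 fold changes, and their median was -0.11.

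Against miR-451a, the marker miRNA of red blood cells, the log2 ratio was -0.33, -0.37 and -0.51 in old replicates 1, 2 and 3, and -0.50, -0.64 and -0.74 in young replicates 1, 2 and 3. Old replicate 3 and young replicate 1 meet here, and the difference of 0.22 gave an exact permutation p of 0.2 (adjusted p = 0.25). Of the 4 red blood cell loci listed, 3 were tested and none passed by edgeR or DESeq2 (0 at an unadjusted p under 0.05 by edgeR), and miR-486a-5p was at 0 in every library, as an overlapping locus. Their summed share was 4.13% to 4.52% in old and 4.03% to 4.36% in young. The part of red blood cell miRNA in the level of miR-22-3p was not tested.

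Against the miRNAs of striated muscle, which regulate myogenesis and fibre type, the answer turned on 1 member. The log2 ratio to the summed list was -1.46, -0.88 and -0.54 in old replicates 1, 2 and 3, and -0.92, -0.89 and -1.26 in young replicates 1, 2 and 3 (difference 0.061, exact permutation p = 0.8, adjusted p = 0.8). It was -0.15 when old replicate 3 was left out and -0.058 when young replicate 3 was. miR-206-3p, the muscle miRNA induced in regenerating fibres, made up most of that sum. Without it the log2 ratio was 1.56, 1.88 and 1.73 in old replicates 1, 2 and 3, and 2.36, 2.51 and 2.16 in young replicates 1, 2 and 3. Each old library then lay below each young one (0.649-fold, log2 difference -0.62, exact permutation p = 0.1, the smallest possible). The tested loci left in that sum had log2 fold changes of 0.39 (miR-133b-3p) to 1.12, all above the 0.28 of miR-22-3p. The direction of this ratio followed from those values, so its p-value is no separate evidence. Of the 9 loci of that list 6 were tested and 4 rose, where 3.46% of all tested loci rose. Without old replicate 1 the same 4 rose, where 6.96% of all 359 loci then tested did. They were miR-133a-3p at both of its loci, with log2 fold changes of 1.12 and 1.11 (adjusted p = 0.0009 each by edgeR), miR-499-5p from an intron of the myosin gene Myh7b, at 1.00 (adjusted p = 0.0009), and miR-1a-3p at 0.71 (adjusted p = 0.0285). Both loci of miR-133a-3p carry the same mature miRNA at near-equal counts, so they are not independent calls. The other locus of miR-1a-3p overlaps another and was at 0.

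Ratios to 3 other abundant miRNAs, chosen with their values known, are given without a test. Relative to miR-21a-5p the log2 ratio was -3.30, -3.95 and -4.06 in old replicates 1, 2 and 3, against -4.18, -4.28 and -4.24 in young ones. Relative to miR-143-3p, typical of smooth muscle and fibroblasts, it was 0.42, 0.37 and 0.53 in old replicates 1, 2 and 3, against 1.03, 0.87 and 0.69 in young ones. The order of the groups was therefore opposite for these partners, higher in old against miR-21a-5p and lower in old against miR-143-3p. Relative to miR-378a-3p the groups overlapped, with 0.60, 0.28 and 0.36 in old replicates 1, 2 and 3 and 0.55, 0.54 and 0.47 in young ones.

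**Figure D4:**
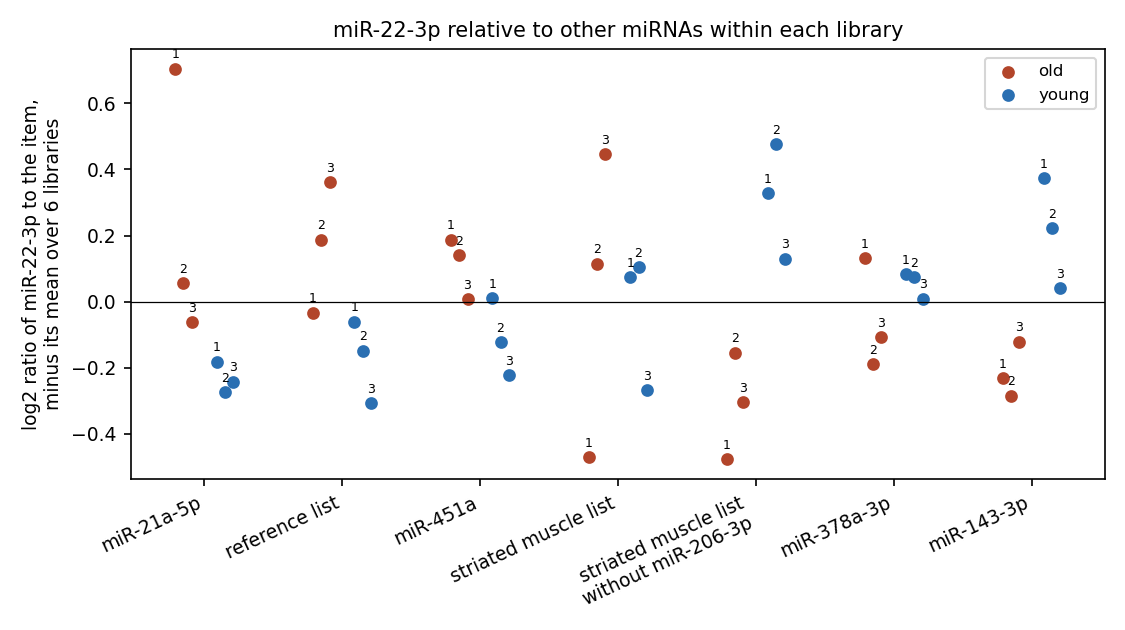
Log2 ratio of miR-22-3p to other miRNAs or lists within each library, each centred on its mean over the 6 libraries; numbered points are replicates of old and young (n = 3 each). Old lies above young for miR-21a-5p and the reference list, below it for miR-143-3p and for the striated muscle list without miR-206-3p, and the groups overlap for miR-451a, miR-378a-3p and the whole striated muscle list.

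Other miRNAs reported to act on Hdac4 or on heart growth have seeds that differ from that of miR-22-3p, as far as the RefSeq table holds them. The abundant members miR-206-3p and miR-26a-5p show this, with the seed in capitals.
miR-206-3p: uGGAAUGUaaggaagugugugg
miR-26a-5p: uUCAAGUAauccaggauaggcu
Of the loci reported to act on Hdac4, 6 of 7 were tested, miR-22-3p among them. miR-1a-3p rose, where 3.46% of all tested loci did, and the other 5 did not pass. Over all 6, miR-1a-3p included, the median log2 fold change was 0.067, against 0.038 over all tested loci, with 3 positive values. Without old replicate 1 the median was 0.17, with 5 positive values, and 1 of the 6 rose, where 6.96% of all loci did. miR-206-3p, the most abundant of them, averaged 56330 ± 20624 CPM in old and 49958 ± 4896 CPM in young (SD, n = 3 each; adjusted p = 0.731 by edgeR).

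Of the 20 loci reported to act on heart growth, 13 were tested, miR-22-3p among them. Log2 fold changes were positive for 12 of the 13, where 182 of all 347 tested loci had positive ones. The median was 0.28, which is the value of miR-22-3p itself. The 4 that rose are the same striated muscle loci named above. Another 9 did not pass by edgeR, and DESeq2 called 5 of the 13 in all, where it called 6.63% of the 347 loci. Groups did not overlap, with old higher, for 9 of the 13, where this held for 14.1% of all tested loci. These 9 include miR-22-3p itself and both identical copies each of miR-133a-3p and miR-26a-5p, so they are fewer miRNAs than loci. Without old replicate 1, 6 of the 13 rose by edgeR, where 6.96% of all loci did, the 4 above with miR-378a-3p (log2 fold change 0.51, adjusted p = 0.0053) and miR-212-3p (0.95, adjusted p = 0.0261).

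**Figure D5:**
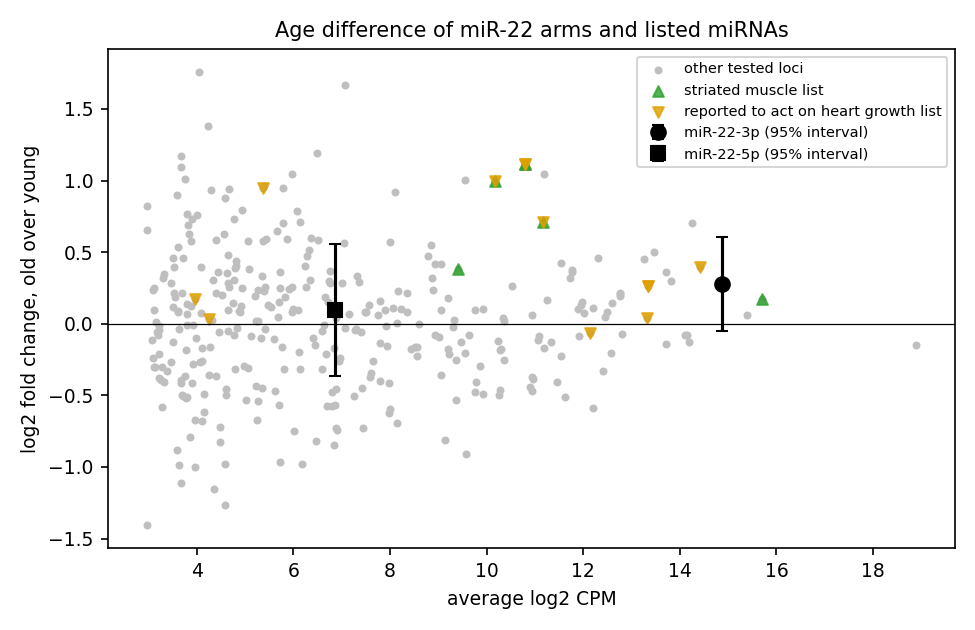
Log2 fold change, old over young, against average log2 CPM for the 347 tested loci; black symbols are the miR-22 strands with their 95% intervals, and coloured symbols are members of the lists named in the legend. The intervals of miR-22-3p (0.28) and miR-22-5p (0.10) both hold 0, and the striated muscle loci miR-133a-3p, miR-499-5p and miR-1a-3p lie between 0.71 and 1.12.

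The counted loci nearest to miR-22 on its strand of chromosome 11 belong to the miR-212 and miR-132 hairpins, at a distance of 290 kb. The heart growth list holds miR-212-3p and miR-132-3p of these. miR-212-3p averaged 53.4 ± 3.25 CPM in old and 27.6 ± 9.01 CPM in young (SD, n = 3 each; log2 fold change 0.95, adjusted p = 0.0691 by edgeR). miR-132-5p averaged 84.6 ± 14.5 CPM in old and 49.1 ± 20.0 CPM in young (SD, n = 3 each; log2 fold change 0.79, adjusted p = 0.139 by edgeR). The groups did not overlap for either, with old higher, where this held for 14.1% of all tested loci. Neither passed with all libraries. miR-132-3p had 1 to 6 counts in any library and was not tested.

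Markers of other cell types were set beside these values. The smooth muscle and fibroblast list took 3.59% to 4.37% of the counts in old and 2.82% to 3.11% in young, groups that do not overlap, like the share of miR-22-3p. By CPM, groups did not overlap in either direction at 27.1% of all tested loci, and no such background was taken for list sums. Only miR-143-3p of the 6 members was past the threshold, higher in old, where 3.46% of all tested loci rose. Its level was 24356 ± 767 CPM in old and 14954 ± 889 CPM in young (adjusted p = 0.0137 by edgeR). Alone it took a mean of 2.45% of the counts in old and 1.49% in young. Log2 fold changes were positive for 5 of the 6 members. The exception was miR-214-3p at -0.40, with each old library below each young one. The leukocyte list took 0.0917% to 0.111% in old and 0.113% to 0.14% in young, again without overlap but by a narrow margin. Old replicate 1 had 0.1111%, against 0.1130% in young replicate 2. Of its 5 tested loci miR-155-5p, induced in activated immune cells, fell (407 ± 25.9 CPM in old and 713 ± 111 CPM in young, adjusted p = 0.0135 by edgeR; 0.865% of all loci fell), and 4 did not pass. The log2 fold changes of these 4 were positive, at 0.79 for miR-142a-5p, 0.73 for miR-146a-5p, 0.11 for miR-223-3p and 0.09 for miR-150-5p. Without old replicate 1, miR-142a-5p rose (log2 fold change 0.97, adjusted p = 0.0422 by edgeR), where 6.96% of all loci did, and miR-155-5p fell, where 5.57% did. The striated muscle list took 4.61% to 9.91% in old and 4.95% to 6.26% in young, and the liver list 0.027% to 0.0476% in old and 0.0234% to 0.0291% in young, with 3 tested loci of which none passed by edgeR or DESeq2 (1 at an unadjusted p under 0.05 by edgeR). The leukocyte marker miR-142a-3p, both endothelial loci, of miR-126a, and the liver-defining miR-122-5p were at 0 in all libraries, as loci that overlap another one, so that nothing could be read from them. The part of any of these cell types in the level of miR-22-3p was not tested.

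The miRNAs with the steadiest ratio to miR-22-3p were picked among 154 mature miRNAs with a mean of at least 100 counts. The measure was the SD, over the 6 libraries, of their log2 ratio to it. The 5 picked were miR-100-5p (SD 0.11), miR-378a-3p (0.12), miR-93-5p (0.13), miR-652-3p (0.13) and miR-192-5p (0.13), against a median of 0.33. The log2 CPM of miR-22-3p itself had an SD of only 0.16 over the 6 libraries. A small SD of the ratio therefore also picks miRNAs that vary little, and does not show that their levels followed its level. miR-378a-3p had no sequence in the RefSeq table used. None of the other 4 has the seed of miR-22-3p, as shown with the seed in capitals.
miR-100-5p: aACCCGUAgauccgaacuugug
miR-93-5p: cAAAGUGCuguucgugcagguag
miR-652-3p: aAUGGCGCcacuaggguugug
miR-192-5p: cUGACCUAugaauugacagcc
miR-22-5p, from the same hairpin, had an SD of 0.21 and ranked 34 in likeness. Among the 50 most abundant miRNAs the least alike were miR-92a-3p (0.50), miR-322-5p (0.49) and miR-183-5p (0.49). Their log2 ratios to miR-22-3p were lower in every old library than in any young one. The margin was narrow for miR-92a-3p (-3.77 in old replicate 1 against -3.76 in young replicate 2). It was wider for miR-322-5p, with -4.07, -3.49 and -3.54 in old replicates 1, 2 and 3 against -2.91, -2.73 and -3.04 in young ones. This was not particular to the least alike. For miR-192-5p, among the most alike, the ratios were -7.59, -7.51 and -7.40 in old replicates 1, 2 and 3 against -7.35, -7.25 and -7.30 in young ones. All these miRNAs were picked by the spread of this same ratio, and the share of the 154 that separate in this way was not taken. miR-22-3p, the denominator of each ratio, was itself higher by CPM in each old library than in any young one. Likeness of this kind over 6 libraries describes their counts and says nothing of shared function.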

How the data were processed

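The deposited file holds raw counts per mature miRNA locus, written by featureCounts 2.0.6 with no strand, overlap or multi-mapping option, per the file headers. The submitters' processing notes name BWA and the build mm10; no version of BWA and no trimming step is given in the sources used here. A read on either strand counts, so that antisense reads are included. Fragments of the host exon are not told apart from miR-22, and strand would not separate them, since the host genes lie on its strand. The value columns were matched to the samples by library name.

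Names came from RefSeq positions (1734 of 2110 loci), from a shared identifier or from GENCODE M21 positions. List counts are of loci, so identical copies of a mature miRNA count more than once and are not independent. Loci were tested with edgeR 4.0.16 (quasi-likelihood test, R 4.3.3) after filterByExpr (minimum count 10, minimum total 15) and TMM scaling, which left 347 loci, with Benjamini-Hochberg adjustment and a threshold of 0.05. SE and intervals are from the unshrunken coefficient. Arm ratios (pseudocount 0.5, both arms at least 10 counts in 3 libraries) were tested with limma 3.58.1. Shares and ratios were tested by two-sided exact permutation. DESeq2 1.42.0 was an alternative, and structure was predicted with RNAfold 2.7.2. The procedures were tested on simulated data.

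The 2 strands, the lists (striated muscle, Hdac4, heart growth, references, and red blood cell, leukocyte, smooth muscle and fibroblast, endothelial and liver markers) and the rule for named miRNAs were chosen with earlier results of these data known. Named were list members past the threshold or most abundant, the 5 most and 3 least alike, and the loci nearest by position, rank or arm ratio; others were chosen after their values were seen. A further list is not reported here.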

Additional observations from a re-analysis of the deposited data

How the results depend on the processing

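The log2 fold change of miR-22-3p stayed positive and short of the threshold under the 14 alternatives tried (0.23 to 0.30, edgeR or DESeq2), including DESeq2's Wald test (0.28, adjusted p = 0.189). miR-22-5p ranged from -0.027 to 0.23 when each library was left out in turn, and the arm ratio from 0.080 to 0.33. The count of called loci, 15 with all libraries, was 23 with DESeq2 and 5 to 45 when each library was left out (45 without old replicate 1, 5 without old replicate 2, 29 without old replicate 3, 6 without young replicate 1, and 8 without young replicate 2 or young replicate 3); the cause was not tested. The log2 difference to the striated muscle list ranged from -0.15 to 0.31 when each library was left out, and was -0.62 without miR-206-3p. The labels do not say whether replicate numbers pair the samples. Deviations of same-numbered libraries correlated at -0.13, 0.024 and -0.15, and no library correlated best with its own number. With 3 libraries in a group such values cannot settle whether the samples were paired. With a replicate block miR-22-3p had 0.28 (adjusted p = 0.445 by edgeR), the arm ratio 0.20, and 6 loci were called. Total-count scaling, added after seeing the data, gave 0.29. Leaving out old replicate 1 from the list counts, also added, is given in the report. With 99 to 193 counts of miR-22-5p in a library, counting error limits its comparison and the arm ratio.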
